A study of Sus scrofa with 6 samples.

Results

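Prolactin (PRL), growth hormone (GH1) and the receptors of these hormones (PRLR and GHR) were followed through the hypothalamus, pituitary and ovary of sows in anestrus and in estrus. These 4 genes were taken by name from the deposited tables, in which each has a single row among 19465 genes. The groups were hypothalamus, pituitary and ovary of anestrous sows, whose anestrus the labels ascribe to inactive ovaries, and the same tissues of sows in normal estrus. All were Landrace x Large White sows that had farrowed once (primiparous), and no age is given in the sources used here. The labels count 3 sows per state without saying whether RNA was pooled, and 1 RNA sequencing library stands for each tissue and state. No difference between the states therefore has a replicate check, and every interval covers counting error only. In these whole-tissue libraries, fewer cells of a type and less RNA per cell cannot be told apart.

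Prolactin and growth hormone are related protein hormones of the anterior pituitary, made by lactotrophs and somatotrophs, cell types that both depend on the transcription factor POU1F1 (Pit-1). Hypothalamic dopamine restrains prolactin release through the receptor DRD2, while GHRH stimulates and somatostatin inhibits growth hormone. Both hormones bind single-pass receptors of the class I cytokine family, which signal through the kinase JAK2 and the transcription factors STAT5A and STAT5B, and both act on the ovary as well as on the mammary gland or liver. The deposited pathway annotation places all of PRL, GH1, PRLR and GHR in the Jak-STAT, PI3K-Akt and cytokine receptor pathways.

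The libraries held 15314325 to 17384789 reads assigned to genes. Levels are given as RPM, reads scaled to a library total of 1000000. The 6 hormone genes measured (PRL, GH1, POMC, CGA, FSHB and TSHB) took 25.95% and 24.88% of the reads of the anestrous and estrous pituitary. Neuron markers summed to 5723 and 4377 RPM in the anestrous and estrous hypothalamus, against 30.3 and 37.2 RPM in the anestrous and estrous ovary, where granulosa markers summed to 1566 and 7171 RPM.

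PRL (ENSSSCG00000001082) and GH1 (ENSSSCG00000017284) were pituitary genes by more than 3 orders of magnitude in every comparison of tissues. PRL gave 2682174 reads in the anestrous and 2136505 in the estrous pituitary, which was 15.4% (95% Clopper-Pearson interval 15.41 to 15.45) and 12.6% (12.54 to 12.58) of all reads. GH1 gave 1191687 reads (6.86%) in the anestrous and 1080328 reads (6.35%) in the estrous pituitary. By reads, not corrected for transcript length, PRL ranked 1 and GH1 ranked 2 of all genes in both pituitary libraries.

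Both hormone genes were also read outside the pituitary, at low and almost constant levels. In the hypothalamus PRL gave 1598 reads (101.1 RPM) in the anestrous and 1479 reads (96.6 RPM) in the estrous library. In the ovary it gave 873 reads (53.1 RPM) in the anestrous and 842 reads (54.4 RPM) in the estrous library. GH1 gave 647 and 656 reads in the anestrous and estrous hypothalamus and 466 and 469 reads in the anestrous and estrous ovary. The hypothalamus thus stood above the ovary for PRL by 1.90-fold (1.75 to 2.07) in the anestrous and 1.78-fold (1.63 to 1.94) in the estrous libraries, and for GH1 by 1.44-fold (1.28 to 1.63) in the anestrous and 1.42-fold (1.25 to 1.596) in the estrous libraries, on the RPM scale.

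**Figure D1:**
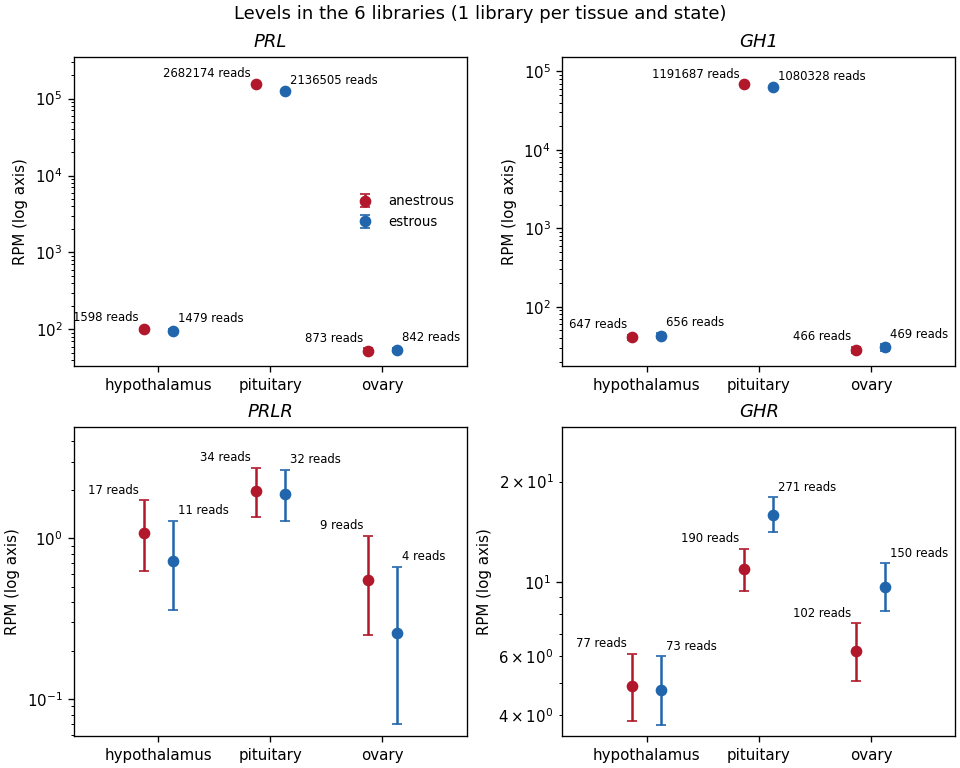
RPM (log axes) of PRL, GH1, PRLR and GHR in the anestrous (red, left) and estrous (blue, right) library of each tissue, with exact Poisson 95% intervals and the read number beside each point. PRL and GH1 stand apart in the pituitary, whereas GHR spans only 4.77 to 15.9 RPM and PRLR 0.258 to 1.956 RPM.

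Set against the mean of the 2 pituitary libraries, PRL, GH1, CGA and FSHB lay at similar low proportions within each other tissue. That mean hides differences between the pituitary libraries. FSHB was at 1852.7 RPM in the anestrous and 496.3 RPM in the estrous pituitary, and POMC at 18906 and 47518 RPM. Proportions of the pituitary library of the same state were not computed, and for FSHB and POMC they would lie further apart. PRL and GH1 were at 0.0620% to 0.0722% of their mean pituitary level in the hypothalamus and at 0.0380% to 0.0459% in the ovary. CGA, the common alpha subunit of the glycoprotein hormones, and FSHB, the beta subunit of follicle-stimulating hormone, were at 0.0539% to 0.0847% in the hypothalamus and 0.0386% to 0.0550% in the ovary. TSHB, the thyrotropin beta subunit, had only 1 to 4 reads in each of these libraries. POMC, the precursor of corticotropin, was at 0.0365% and 0.0414% in the anestrous and estrous ovary, like the others, but at 0.142% and 0.924% in the anestrous and estrous hypothalamus. FSHB gave 32208 and 8442 reads in the anestrous and estrous pituitary but 10 and 11 in the anestrous and estrous hypothalamus and 10 in each ovary library. POU1F1 gave 2 and 3 reads in the anestrous and estrous hypothalamus and 0 and 3 in the anestrous and estrous ovary, against 793 and 1005 in the anestrous and estrous pituitary. Carry-over of RNA or reads between libraries was not tested, and in these files it cannot be told apart from RNA made in the hypothalamus or ovary. The levels, tissue ratios and state ratios of PRL and GH1 outside the pituitary are therefore those of the reads, whatever their origin.

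Ovarian markers read in the pituitary did not all share a single proportion of their mean ovarian level. Those of theca and luteal cells lay close together, at 0.0353% to 0.0580%, apart from the few reads of LHCGR. CYP17A1, the androgen-forming enzyme of theca cells, gave 17 and 17 reads in the anestrous and estrous pituitary, 0.0441% and 0.0451%. STAR, which brings cholesterol into mitochondria, HSD3B1, a steroid dehydrogenase, and INSL3, a theca cell hormone, were at 0.0353% to 0.0580% there, and LHCGR, the receptor for luteinizing hormone, with 0 reads in the anestrous and 1 read (0.0775%) in the estrous library. The granulosa markers ranged widely. CYP19A1, the aromatase, was at 0.0531% in the anestrous and 0.0181% in the estrous pituitary, and INHA, the inhibin alpha subunit, at 0.118% and 0.106%, whereas FSHR, HSD17B1 and GJA1 were at 1.02% to 4.10% and FOXL2, also a pituitary transcription factor, at 29.7% and 48.0%. Of the 7 oocyte genes, 5 had no read in the pituitary (ZP3, ZP4, BMP15, FIGLA and NLRP5). These averaged only 0.258 to 40.6 RPM in the ovary. At such levels, as for LHCGR at 75.9 RPM, 0 reads cannot show whether a proportion like that of CYP17A1 was shared. ZP2 had 1 and 3 reads in the anestrous and estrous pituitary, and GDF9 was at 121% and 80.1%. In the anestrous and estrous hypothalamus, GJA1 was at 104% and 118.5% and GDF9 at 113% and 115.5%. The origin of these reads was not tested.

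**Figure D2:**
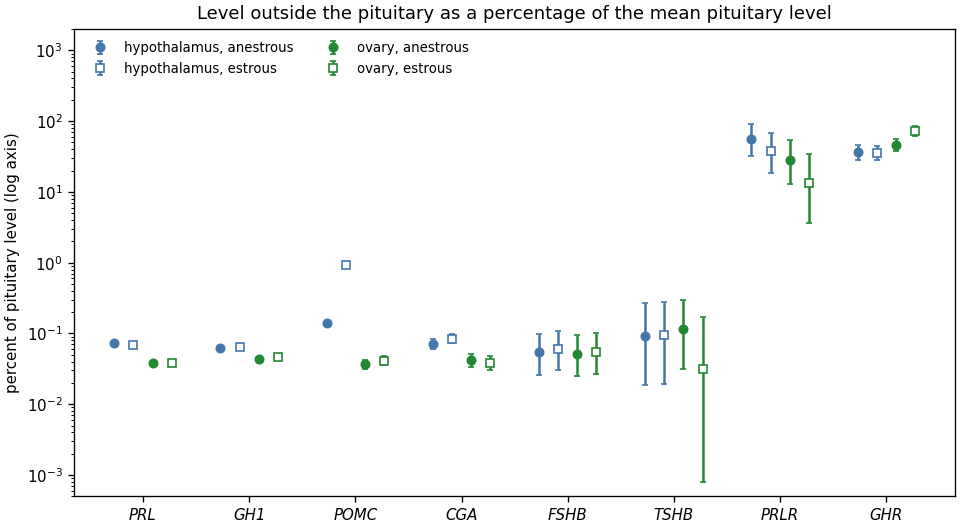
Level outside the pituitary as a percentage of the mean level of the 2 pituitary libraries (log axis), from RPM, for the hormone and receptor genes in hypothalamus (blue) and ovary (green), anestrous (filled circles) and estrous (open squares), with exact Poisson 95% intervals. The hormones lie near 0.04% to 0.09% apart from POMC in the hypothalamus and the few reads of TSHB, while the receptors lie between 13.5% and 72.1%.

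Between the states, PRL was higher in the anestrous pituitary by 1.33-fold (1.328 to 1.333) and GH1 by 1.17-fold (1.166 to 1.172). These are ratios of the authors' size-factor-normalised read counts, with exact conditional binomial 95% intervals from the reads. At this depth counting error is negligible for both, so the missing replicates, and not the read number, limit these ratios. The term 2-fold different is used here for a gene whose log2 ratio (pseudocount 1) was at least 1 in size, and whose normalised counts averaged 50 or more. None of the 3 genes over that floor (PRL, GH1 and GHR) was 2-fold different in the pituitary, where 3.11% of 10720 genes were (1.20% higher and 1.90% lower). For scale, 9.60% of those genes had a log2 ratio at least as high as that of PRL (0.41), and 23.2% one at least as high as that of GH1 (0.23). With equal library totals the ratios were 1.23 for PRL and 1.08 for GH1. The authors' deposited table gave them a p of 0.995 and 0.959.

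PRL was higher relative to GH1 as well, a measure that needs no scaling between libraries. There were 2.25 PRL reads per GH1 read in the anestrous and 1.98 in the estrous pituitary, a ratio of ratios of 1.14 (1.134 to 1.142, Woolf interval). In the hypothalamus the number was 2.47 in the anestrous and 2.25 in the estrous library, with a ratio of ratios of 1.095 (0.960 to 1.25, exact conditional interval), and in the ovary 1.87 in the anestrous and 1.80 in the estrous library, with one of 1.04 (0.887 to 1.23). Neither of these intervals excluded equal proportions.

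Among the reads of the 6 hormone genes, PRL made up 59.5% (59.41 to 59.50) in the anestrous and 50.5% (50.44 to 50.54) in the estrous pituitary. GH1 made up 26.4% in the anestrous and 25.5% in the estrous library. The largest opposite difference was in POMC, which made up 7.29% in the anestrous and 19.1% in the estrous library, while CGA made up 6.08% of the anestrous and 4.56% of the estrous hormone reads. FSHB and TSHB together stayed below 1 percent of hormone reads in each library, with FSHB at 0.714% in the anestrous and 0.200% in the estrous one. Corticotroph and melanotroph markers summed to 19057 RPM in the anestrous and 47773 RPM in the estrous pituitary. Nearly all of this was POMC itself, at 18906 and 47518 RPM. By gene, 4 of 5 were lower and 3 of them 2-fold lower (POMC, CRHR1 and AVPR1B), while PCSK2 was at a ratio of 0.828 and TBX19 at 1.03. Gonadotroph markers, most of them CGA reads, summed to 17645 RPM in the anestrous and 11872 in the estrous pituitary. Of these 3 genes, FSHB was 2-fold higher and GNRHR, the receptor for gonadotropin-releasing hormone, 2-fold lower (190 anestrous and 454 estrous reads). Their part in the PRL and GH1 ratios was not tested.

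**Figure D3:**
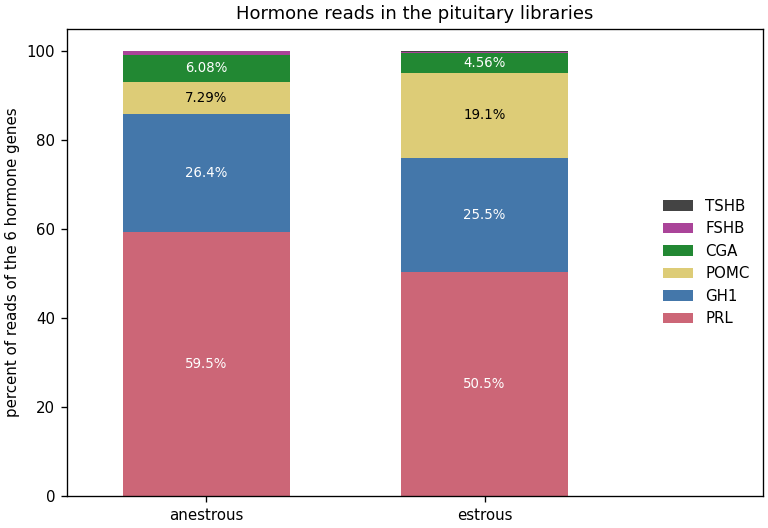
Make-up of the reads of 6 hormone genes in the anestrous (left) and estrous (right) pituitary library, as stacked percentages from 0. PRL takes 59.5% and 50.5%, GH1 26.4% and 25.5%, and POMC 7.29% and 19.1%.

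In the hypothalamus, PRL was 1.12-fold higher in the anestrous library (1.04 to 1.20) and GH1 was at a ratio of 1.02 (0.912 to 1.14). The PRL interval there included 1 with equal library totals (1.046, 0.974 to 1.124). It also did with totals without the 10 largest genes (1.067, 0.994 to 1.146). In the ovary, PRL was at a ratio of 1.12 (1.02 to 1.24) and GH1 at 1.08 (0.945 to 1.23). The direction in the ovary depended on the scaling. With equal library totals PRL was at 0.977 and GH1 at 0.936 there, and GH1 in the hypothalamus was at 0.955. None of the 3 genes over the floor was 2-fold different in either tissue, against 2.34% of 11390 genes in the hypothalamus (1.29% higher and 1.04% lower) and 20.3% of 10902 genes in the ovary (12.3% higher and 7.95% lower).

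GHR (ENSSSCG00000016866), the growth hormone receptor, was read in every library. It gave 77 and 73 reads in the anestrous and estrous hypothalamus (4.87 and 4.77 RPM). The anestrous and estrous pituitary had 190 and 271 GHR reads (10.9 and 15.9 RPM), and the anestrous and estrous ovary 102 and 150 (6.21 and 9.69 RPM). Its level was highest in the pituitary, by 1.76-fold (1.38 to 2.26) over the ovary in the anestrous and 1.65-fold (1.34 to 2.02) in the estrous libraries. The ovary stood above the hypothalamus by 2.03-fold (1.53 to 2.73) in the estrous libraries, but the ratio in the anestrous libraries, 1.27 (0.939 to 1.74), did not exclude equal levels.

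GHR was lower in the anestrous library of both the pituitary and the ovary, and close to equal in the hypothalamus. Pituitary GHR stood at a ratio of 0.743 (0.614 to 0.898), ovarian GHR at 0.737 (0.567 to 0.954) and hypothalamic GHR at 1.09 (0.780 to 1.52). Both lower ratios kept their direction under every scaling tried, with 0.686 to 0.746 in the pituitary and 0.641 to 0.737 in the ovary. Ratios this low were not rare: 11.25% of pituitary genes over the floor and 22.7% of ovarian ones were at least as low. The authors' deposited p-values for GHR, like those for PRL, GH1 and PRLR, come from 1 library per state and so carry no replicate check.

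Cell markers differed beside the GHR values. In the ovary, granulosa markers were lower in 6 of 6 genes over a mean of 10 (summing to 1566 RPM in the anestrous and 7171 in the estrous library), and macrophage markers were higher in 4 of 5, summing to 1017 RPM in the anestrous and 616 in the estrous ovary. Fibroblast and smooth muscle markers summed to 4064 RPM in the anestrous and 6623 in the estrous ovary. Of the 3 found, DCN was at a ratio of 0.653 and ACTA2 at 0.723. LUM was 2.63-fold higher (2607 anestrous and 1074 estrous reads). Adipocyte markers were included because fat expresses GHR, but only 3 of 5 were found by name, without ADIPOQ and FABP4. They summed to 2.19 RPM in the anestrous and 0.452 in the estrous ovary, mostly CIDEC (32 anestrous and 5 estrous reads). LEP had 0 reads in every library of all tissues. In the pituitary, the corticotroph and melanotroph sums given above are nearly all POMC reads. Neurohypophysis and glia markers summed there to 41.1 RPM in the anestrous and 56.2 in the estrous library, with 4 of 4 lower. Their part in the GHR ratios was not tested.

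PRLR (ENSSSCG00000016830), the prolactin receptor, was near the limit of detection everywhere. The anestrous and estrous pituitary had 34 and 32 PRLR reads, the anestrous and estrous hypothalamus 17 and 11, and the anestrous and estrous ovary 9 and 4. The ratio was 1.595 (0.705 to 3.77) in the hypothalamus, 1.13 (0.674 to 1.89) in the pituitary and 2.44 (0.681 to 10.8) in the ovary. A difference between the states was not detectable at this depth in any tissue, and PRLR never reached the floor of 50. The pituitary stood above the ovary by 3.57-fold (1.68 to 8.47) in the anestrous and 7.28-fold (2.58 to 28.4) in the estrous libraries. The hypothalamus lay between them, at 1.964-fold (0.828 to 4.999) the ovary in the anestrous and 2.78-fold (0.824 to 12.0) in the estrous libraries, which did not exclude equal levels, and receptor isoforms are not separated in the tables.

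**Figure D4:**
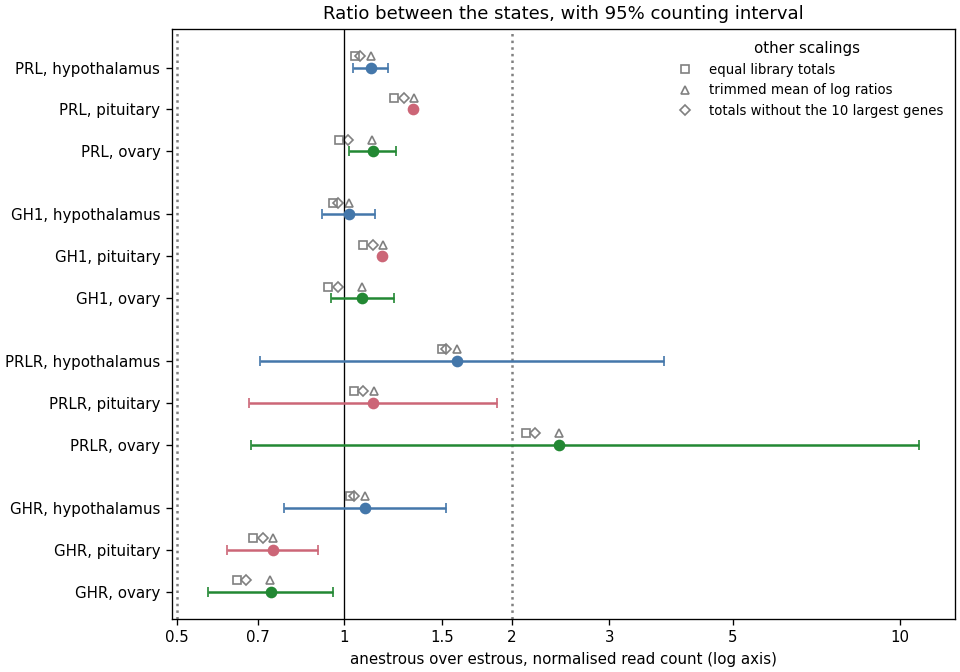
Ratio of anestrous over estrous normalised read counts (log axis) for each gene and tissue, with the 95% counting interval as a bar and open grey symbols for 3 other scalings. GHR lies below 1 in the pituitary (0.743) and ovary (0.737), PRL lies above 1 in the pituitary (1.33), and the PRLR intervals all include 1.

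Of the receptors that govern lactotrophs and somatotrophs, 13 of 14 were found by name and 10 gene IDs had a mean of at least 10 in the pituitary. None was 2-fold higher and 2 were 2-fold lower, against 6.50% of 13144 genes over that lower floor (2.27% higher and 4.23% lower), with a median log2 ratio of 0.24 against -0.0025 for all. SSTR2, a somatostatin receptor, gave 20 and 75 reads in the anestrous and estrous pituitary (3.54-fold lower, 2.14 to 6.12), and TRHR, the receptor for thyrotropin-releasing hormone, gave 14 anestrous and 42 estrous reads (2.83-fold lower, 1.52 to 5.61). SSTR3, another somatostatin receptor, differed the other way within 2-fold, with 60 anestrous and 33 estrous reads (1.93-fold higher, 1.24 to 3.04). DRD2 gave 9876 anestrous and 8678 estrous reads, a ratio of 1.21 (1.17 to 1.24), and GHRHR, the GHRH receptor, gave 1641 anestrous and 1483 estrous reads, a ratio of 1.17 (1.09 to 1.26). ESR1, the estrogen receptor alpha, was at a ratio of 1.27 at the ID with most of its reads, THRB, a thyroid hormone receptor, at 1.33 and RXRG, a retinoid receptor, at 1.19. The 4 named by size among genes with a mean of at least 50 (THRB, ESR1, DRD2 and RXRG) were thus all above 1, as were PRL and GH1, though each by less than 2-fold. ESR1 occurs at 2 IDs in the tables, so its reads may be divided between copies.

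POU1F1, on which both cell types depend, gave 793 and 1005 reads in the anestrous and estrous pituitary, a ratio of 0.836 (0.761 to 0.919), while PRL and GH1 stood above 1. Of 9 lineage factors found among 12, 8 had a mean of at least 10, none was 2-fold higher and 2 were 2-fold lower (median log2 ratio -0.10), beside 2.27% higher and 4.23% lower among all pituitary genes over that floor. These were FOXO1, a forkhead factor (744 anestrous and 1921 estrous reads, 2.44-fold lower), and INSM1, a zinc finger factor of endocrine cells (396 anestrous and 843 estrous reads, 2.01-fold lower). GATA2, a factor of thyrotrophs and gonadotrophs, was at a ratio of 1.48.

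Genes of hormone storage and release were mixed. Of 11 found among 15, none was 2-fold higher and 1 was 2-fold lower, with a median log2 ratio of 0.0069, beside 6.50% of all pituitary genes over that floor 2-fold different. That was PCSK1N, an inhibitor of prohormone convertase (8640 anestrous and 19485 estrous reads, 2.13-fold lower). The granule protein genes diverged, with CHGB at a ratio of 1.795 (540881 anestrous and 319367 estrous reads) and CHGA at 0.655. PCSK2, a prohormone convertase, was at 0.828.

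In the hypothalamus, 13 of 15 regulators of the hormones were found and 10 had a mean of at least 10. None was 2-fold higher and 4 were 2-fold lower, against 4.61% of 13587 genes (1.99% higher and 2.61% lower), with a median log2 ratio of -0.73 against -0.0016. Over a floor of 200, which leaves out SLC6A3, GHRH and NPY, the median was -0.12. GHRH gave 12 and 80 reads in the anestrous and estrous hypothalamus (6.46-fold lower, 3.50 to 13.02). SLC6A3, the dopamine transporter, gave 12 anestrous and 286 estrous reads (23.1-fold lower, 13.02 to 45.2). The others were OXT, the oxytocin precursor (6.79-fold lower), and NPY, neuropeptide Y (3 anestrous and 22 estrous reads, 7.11-fold lower, 2.13 to 37.1). SST, the somatostatin precursor, was at a ratio of 1.145 (1180 anestrous and 1064 estrous reads). Of the dopamine pathway genes, TH, tyrosine hydroxylase, was not found by name. SLC18A2, the vesicular monoamine transporter, was at 0.918 (282 anestrous and 317 estrous reads) and DDC, aromatic amino acid decarboxylase, at 0.729 (224 anestrous and 317 estrous reads). TRH, thyrotropin-releasing hormone, was at 1.40 (528 anestrous and 390 estrous reads), and GAL, the galanin precursor, lay at the edge of the 2-fold call (171 anestrous and 354 estrous reads). In the same hypothalamus libraries, choroid plexus markers summed to 79.2 RPM in the anestrous and 177 RPM in the estrous one, with 3 of 4 lower. Glia markers summed to 9852 and 14986 RPM, with 2 of 3 lower. Nearly all of this was GFAP, at 9342 and 14495 RPM. NKX2-1 was at a ratio of 0.908 (0.809 to 1.017) and SLC1A3 at 1.12 (1.086 to 1.16). Neuron markers were higher in 7 of 7. The part of these cell types in the ratios was not tested.

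Downstream of the receptors, the JAK2-STAT5 genes were close to equal in the hypothalamus and pituitary. Of 20 listed genes 18 were found, at 19 IDs with a mean of at least 10 in each tissue, since STAT5A occurs at more than 1 ID. None was 2-fold different in the hypothalamus (median log2 ratio -0.08) or pituitary (-0.02), beside 4.61% and 6.50% of all genes over that floor. In the ovary 1 was 2-fold higher and 2 were 2-fold lower (median 0.29 against 0.0054 for all genes), against 24.4% of 13193 genes (13.6% higher and 10.7% lower).

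JAK2 itself, the kinase bound to both receptors, was lower in the anestrous pituitary. It gave 105 anestrous and 216 estrous reads there, 1.94-fold lower (ratio 0.515, 0.404 to 0.653), just short of the 2-fold call at a log2 ratio of -0.95, while GHR was at 0.743 in the same pair of libraries. In the hypothalamus it gave 267 anestrous and 246 estrous reads (1.12, 0.939 to 1.34) and in the ovary 342 anestrous and 265 estrous reads (1.40, 1.19 to 1.65). The 2 IDs named STAT5A with reads were at 0.994 and 0.967 in the pituitary, 0.911 and 0.935 in the hypothalamus and 0.985 and 0.901 in the ovary. STAT5B was not found by name, and whether either of these IDs is STAT5B was not settled. GAB1, a docking protein, was at 0.726 in the pituitary, 0.720 in the hypothalamus and 0.647 in the ovary. In the ovary, the kinase gene LYN was 3.50-fold higher (1930 anestrous and 598 estrous reads), and IRS1, an insulin receptor substrate, and PIK3R1, a regulatory subunit of phosphoinositide 3-kinase, were 2.27-fold and 2.19-fold lower.

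Of 15 genes that limit this signalling 14 were found, all but SOCS3, and these 14 had a mean of at least 10 in each tissue. None was 2-fold different in the pituitary (median log2 ratio -0.06), 2 were 2-fold lower in the hypothalamus (median -0.20), and in the ovary 4 were higher and 1 was lower (median 0.22). Among all genes over that floor 4.61% were 2-fold different in the hypothalamus, 6.50% in the pituitary and 24.4% in the ovary. CISH, an inhibitor that STAT5 induces, gave 163 and 276 reads in the anestrous and estrous pituitary, a ratio of 0.626 (0.5125 to 0.762), and 12 anestrous and 35 estrous reads in the hypothalamus, 2.83-fold lower (1.43 to 5.98), but 62 anestrous and 53 estrous reads in the ovary (1.27, 0.864 to 1.86). SOCS2, which dampens growth hormone receptor signalling, was at 1.03 in the pituitary, 1.465 in the hypothalamus and 0.627 in the ovary (224 anestrous and 387 estrous reads). SOCS1 was 2-fold lower in the hypothalamus (13 anestrous and 29 estrous reads) and in the ovary (42 anestrous and 105 estrous reads). The 4 that were higher in the ovary were PTPN6, a phosphatase of blood cells (3.20-fold), SOCS4, SOCS7 and the ubiquitin ligase gene CBL (2.58-fold). SOCS4 and SOCS7, at log2 ratios of 1.17 and 1.03, stood above the 2-fold limit by less than the -0.20 by which equal library totals move ovarian ratios. The 7 calls of this list over the 3 tissues were 5 under that scaling and 5 with a pseudocount of 5. LYN and PTPN6 are both known from leukocytes, and macrophage markers summed to 1017 RPM in the anestrous and 616 RPM in the estrous ovary, and their part was not tested.

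Of the list of other class I cytokine receptors, 15 of 18 genes were found, among them IL10RA, which belongs to class II. In the pituitary 12 IDs had a mean of at least 10, with none 2-fold higher and 2 lower (CSF2RB, 57 anestrous and 130 estrous reads, and IL2RB, 13 anestrous and 35 estrous reads). In the hypothalamus 1 of 15 was 2-fold lower (IL7R, 6 anestrous and 29 estrous reads). Among all genes over that floor, 2.27% were 2-fold higher and 4.23% lower in the pituitary, and 1.99% higher and 2.61% lower in the hypothalamus. In the ovary 5 of 15 were 2-fold higher and 3 lower, with a median log2 ratio of 0.52, against 13.6% higher and 10.7% lower among all ovarian genes over that floor. Without IL10RA, 4 of 14 were higher and 3 lower in the ovary, with a median of 0.42, and the medians were -0.06 in the hypothalamus and 0.11 in the pituitary. CSF2RB, the shared beta chain of colony-stimulating factor receptors, was 6.98-fold higher, IL2RG 3.065-fold, IL4R 2.85-fold and the class II gene IL10RA 2.60-fold, together with 1 of 2 IDs of IL6R (26 anestrous and 10 estrous reads). LIFR, CNTFR and IL11RA, which bind or share partners in the family of leukemia inhibitory factor and interleukin 6, were 2.50-fold, 3.20-fold and 3.52-fold lower. GHR, at a log2 ratio of -0.44 in the ovary, lay between these groups, and PRLR, at 1.10 there, rests on 9 and 4 reads.

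**Figure D5:**
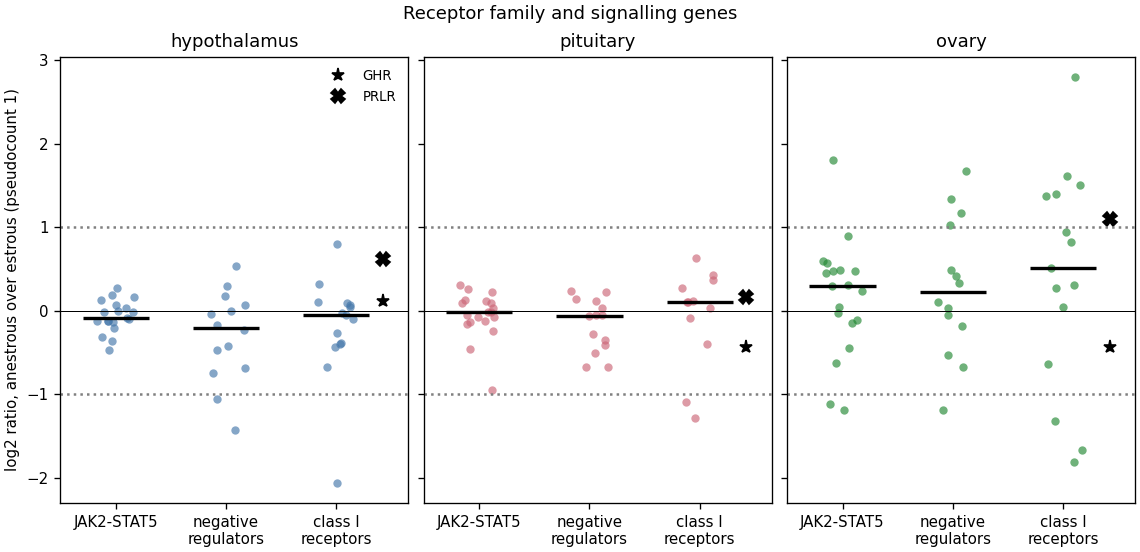
Log2 ratio of anestrous over estrous normalised counts (pseudocount 1) for JAK2-STAT5 genes, negative regulators and other class I cytokine receptors (with IL10RA, of class II) with a mean of at least 10, by tissue, with black lines at medians, dotted lines at 2-fold, and GHR (star) and PRLR (cross) beside them. Medians lie between -0.20 and 0.11 in the hypothalamus and pituitary and between 0.22 and 0.52 in the ovary, and PRLR has a mean below 10 in the ovary.

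Genes downstream of growth hormone were mostly within 2-fold. Of 10 listed, 9 were found. None was 2-fold different in the ovary (median log2 ratio 0.04), 1 of 8 was higher in the pituitary (IGFBP5, an insulin-like growth factor binding protein, 2.35-fold, 15581 anestrous and 7017 estrous reads) and 1 of 8 was lower in the hypothalamus (CISH). The shares of all genes over that floor were 24.4%, 6.50% and 4.61% in these tissues. IGF1, insulin-like growth factor 1, gave 168 and 354 reads in the anestrous and estrous ovary, 1.94-fold lower (ratio 0.514, 0.425 to 0.620), beside the lower GHR. IGFALS, which stabilises circulating IGF1, was at 0.600 in the ovary, and IGFBP3 was at 1.69.

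Genes that prolactin regulates in rodent luteal cells differed widely in the ovary. Of 10 IDs with a mean of at least 10, 2 were 2-fold higher and 6 were 2-fold lower (median log2 ratio -1.64), against 13.6% higher and 10.7% lower among all ovarian genes over that floor. Among the lower ones, STAR was 23.65-fold lower, LHCGR, the receptor for luteinizing hormone, 4.76-fold and SCARB1, a lipoprotein receptor, 3.82-fold, along with both IDs of ESR1. HSD3B1 was 5.22-fold higher and PTGFR, the prostaglandin F receptor, 3.26-fold higher (2110 anestrous and 701 estrous reads). HSD17B7, first described as a protein associated with the prolactin receptor, was at a ratio of 1.02 (0.881 to 1.19). STAR, HSD3B1 and LHCGR also mark theca and luteal cells. The 5 markers of these cells, the same genes among them, summed to 3497 and 8624 RPM in the anestrous and estrous ovary. Of the 5, 4 were 2-fold lower and 1, HSD3B1, was 2-fold higher. HSD3B1 made up most of the anestrous sum, with 3004 RPM in the anestrous and 661.5 RPM in the estrous library. The part of these cell types in the ratios was not tested.

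The prolactin signalling pathway as annotated in the deposited tables, a list taken up after the data were seen, held 50 genes beside PRL and PRLR. Of 38 over a mean of 50 in the hypothalamus and 35 in the pituitary none was 2-fold different. The shares of all genes over that floor were also low, at 2.34% and 3.11% in these tissues. Of 40 in the ovary 4 were higher and 5 lower, or 22.5%, close to the 20.3% of all ovarian genes over that floor. The lowest was CYP17A1 (4202 anestrous and 64699 estrous reads) and the highest PIK3R5, a regulatory subunit of phosphoinositide 3-kinase (901 anestrous and 288 estrous reads).

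The genes with profiles most like each of PRL, GH1, PRLR and GHR over the 6 libraries were ranked by the root mean square difference of log2(RPM + 1) after each profile was centred. The nearest to PRL was GH1 (0.165), followed by CGA (0.169), FSHB (0.984), POMC (1.46) and TSHB (1.73), and GH1 had PRL, CGA, FSHB, POMC and TSHB in that order. The nearest to GHR were HEBP2 (0.0751), CBY1 (0.0965), C18orf21 (0.125), ATP5E (0.127) and IQCC (0.139). HEBP2 gave 30.95 and 43.6 RPM in the anestrous and estrous pituitary and 19.4 and 28.2 RPM in the anestrous and estrous ovary. Like GHR it was lower in the anestrous library of each, a likeness for which the ranking selected it. The nearest to PRLR were ANKRD45 (0.0539), OSBPL6, OPLAH, CRYGB and CYP2J2, a ranking that rests on 4 to 34 reads of PRLR. These are descriptions of 6 libraries, and Pearson correlation in place of this difference shared 2 of the 5 genes for PRL, 2 for GH1, 1 for PRLR and none for GHR.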

How the data were processed

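Snap-frozen tissue gave Trizol RNA that went into TruSeq RNA libraries, per the labels' protocols. TopHat2 2.1.0 is listed per the submitters' processing notes. Counter, genome build, annotation, strand setting and pooling are not given in the sources used here; overlapping or duplicated genes are therefore uncertain. Per the file headers, the authors deposited a normalised signal per gene and library, with their own p-value and adjusted p-value for each pair of libraries, and the labels name DESeq. Each signal value was a whole multiple of its column's smallest value above 0 (100% within 0.01 of a read), which gave the reads. Tables were normalised separately by tissue, so states were compared within a tissue, and RPM across tissues rests on all reads assigned to genes.

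Ratios are of the authors' normalised counts without a pseudocount. Log2 ratios have a pseudocount of 1. Intervals are 95% and cover counting error only, because 1 library stands for each tissue and state. Reads lacking molecular identifiers can be copies, for which the intervals make no allowance. The ratio of ratios in the pituitary has a Woolf interval, since its counts were too large for the exact one that was planned. Lists were counted over gene IDs with a mean of at least 10, by the same log2 ratio. Listed genes not found by name were not analysed here. Of 19465 genes, 12762 had a symbol in the deposited tables, and 14419 had one once Ensembl names were added.

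The genes of interest, the 9 gene lists and 17 marker lists were chosen with earlier results of these data known. Named genes were PRL, GH1, PRLR and GHR, up to 4 members per list and tissue with the largest absolute log2 ratio and a mean of at least 50, and the 5 most similar profiles; other list members were named after their values were seen. The settings varied were library scaling (equal totals, a trimmed mean, totals without the 10 largest genes), the pseudocount (5) and the floor (none, 200). A count test on the recovered reads with edgeR 4.0.16 in R 4.3.3 (quasi-likelihood, tissue as a block) was run as an alternative only, because different tissues do not replicate a state. It called 0 of 14451 genes at an adjusted p of 0.05, and 540 had an unadjusted p under 0.05. The scripts (Python 3.11.15, scipy 1.17.1) were tested on simulated data.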

Additional observations from a re-analysis of the deposited data

How the results depend on the processing

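Equal library totals moved every log2 ratio by -0.09 in the hypothalamus, -0.12 in the pituitary and -0.20 in the ovary. Under equal totals, a trimmed mean and totals without the 10 largest genes, PRL in the pituitary was at 1.23, 1.335 and 1.28, and GH1 at 1.08, 1.17 and 1.12. PRL in the ovary was at 0.977 with equal totals, the reverse of its direction, and at 1.02 without the largest genes, and GH1 in the ovary was at 0.936 with equal totals. The other ratios of the 4 genes stayed inside their counting intervals under each scaling. In the hypothalamus, pituitary and ovary in turn, genes 2-fold higher and lower numbered 147 and 119, 129 and 204, and 1343 and 867, but 113 and 167, 98 and 277, and 1033 and 1242 with equal totals. With no floor they numbered 845 and 877, 965 and 1139, and 2534 and 2223, and with a floor of 200 they numbered 75 and 29, 48 and 84, and 880 and 501. Fewer genes are tested at the higher floor. Counts of list members 2-fold different, summed over the tissues reported, changed at the floor of 200 to 0 (of 2) for lactotroph and somatotroph receptors, 1 (of 4) for hypothalamic regulators, 1 (of 7) for negative regulators, 6 (of 11) for class I receptors and 1 (of 2) for growth hormone output. Lineage factors had 1 (of 2) with a trimmed mean and 1 with a pseudocount of 5, since INSM1 lay at the threshold. The edgeR test with tissue as a block gave adjusted p of 0.987 for PRL, PRLR and GHR and 0.991 for GH1. Beyond that block, which pairs the states by tissue, no pairing could be made, since the labels give no replicate numbers. Leaving out IL10RA, an alternative chosen after seeing the data, gave 10 (of 11) calls for class I receptors. The depth limits PRLR, with 4 to 34 reads per library, in all tissues.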
